A study of Mus musculus with 6 samples.

Results

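The p53 pathway was measured as 32 genes, namely Trp53, which encodes p53, its regulators and genes known as p53 targets, chosen by symbol among 17567 rows of gene counts. All 32 had a row and all 32 passed the filter on low counts that left 12209 genes for testing. RNA came from mouse immature dendritic cells, which take up antigen but have not yet matured to present it to T cells. They were derived over 6 days from the marrow of C57BL/6 males at 6 weeks of age in medium with 10% FBS, GM-CSF (20 ng/mL) and IL-4 (10 ng/mL), then purified on CD11c beads. In the H2O2 group 100 µM hydrogen peroxide was present for 24 h, and the other group is labelled control. GEO's labels give 3 libraries a group, but the values of H2O2 replicate 3 equalled those of H2O2 replicate 1 in all 17567 rows, so 2 distinct H2O2 and 3 control libraries were compared. No label ties a library to a mouse or culture, so p-values measure only the spread between these libraries, which may be technical.

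p53 is a transcription factor that is kept scarce by the ubiquitin ligase Mdm2 and accumulates after DNA damage and other stress. It switches on genes that stop the cell cycle, repair DNA, start cell death, or, like Mdm2 itself, shut p53 down again. Much of its control acts on the protein, so the level of Trp53 RNA need not move with p53 activity.

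Each library held 16232604 to 16672491 estimated counts. The libraries split in a way that the labels do not explain. The Y-linked genes Ddx3y, Eif2s3y, Kdm5d and Uty summed to 0.453 CPM (counts scaled for library size) in H2O2 replicate 2 and to 0.121 and 0.305 CPM in control replicates 2 and 3. They summed to 95.1 CPM in H2O2 replicate 1 and 102 CPM in control replicate 1, although all mice are labelled male. H2O2 replicate 2 and control replicates 2 and 3 are called set B, and H2O2 replicate 1 and control replicate 1 set A. Of 11 dendritic cell markers, 10 were tested and 5 fell, among them Irf8 (log2 -0.45), Cd74 (-0.41) and Flt3 (-1.01). These calls are from the edgeR test with a set term described below, in which 4.61% of all genes were lower. Without the set term 0 of the markers and 0 of all genes were called lower. Without control replicate 3 these counts were 1 marker and 196 of 12091 tested genes. The 11 markers summed to 6126 and 6189 CPM in H2O2 libraries and to between 6717 and 7292 CPM in controls. Itgax, the CD11c gene, stood at 1496 and 2177 CPM in H2O2 libraries, against 1473, 2154 and 1940 CPM in control replicates 1, 2 and 3, while Cd209a was at 0 in both H2O2 libraries and control replicate 1. In bulk RNA, fewer cells of a type and less RNA per cell cannot be told apart.

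Promoter sequence was available in a RefSeq table (build GRCm38.p6) for 24 of the 32 genes, as windows from 250 bases before to 50 bases after an annotated start. The p53 decamer consensus, a sequence of 10 bases that reads the same on both strands, was matched exactly in 11 of the 24 genes (45.8%), against 817 of 9868 tested genes with a window (8.28%). The 11 genes were Trp53, Mdm2, Ppm1d, Ccng1, Cdkn1a, Gadd45a, Polk, Bax, Aen, Ei24 and Sesn1. A pair of decamers with a spacer of at most 13 bases, the full p53 response element consensus, was found in Cdkn1a alone of the 24 (4.17%), against 5 tested genes in all (0.0507%). The genes were listed for being known p53 targets, so these shares are a description, and a match is not evidence of binding. The stretches below carry the matches of Mdm2 and Ccng1, which rose under H2O2, and of Cdkn1a, Ppm1d and Bax, which were not called. Capitals mark the matched bases, and in Cdkn1a the decamers and the spacer between them.
Mdm2, chr10:117710905-117710974, minus strand: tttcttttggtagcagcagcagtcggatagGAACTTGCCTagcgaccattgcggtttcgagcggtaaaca
Ccng1, chr11:40755432-40755501, minus strand: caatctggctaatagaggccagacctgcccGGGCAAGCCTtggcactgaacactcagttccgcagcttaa
Cdkn1a, chr17:29090876-29090967, plus strand: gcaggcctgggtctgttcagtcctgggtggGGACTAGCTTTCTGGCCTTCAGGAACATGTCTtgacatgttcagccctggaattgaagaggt
Ppm1d, chr11:85311092-85311161, plus strand: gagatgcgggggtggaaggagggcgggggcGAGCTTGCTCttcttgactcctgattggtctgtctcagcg
Bax, chr7:45467060-45467129, minus strand: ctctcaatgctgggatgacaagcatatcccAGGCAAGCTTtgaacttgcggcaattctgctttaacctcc
Of the 8 genes that rose, 5 had a window, and the windows of Phlda3, Plk2 and Eda2r held no match.

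Under H2O2, 8 of the 32 genes rose and none fell. The genes that rose were the feedback genes Mdm2 and Ccng1, the arrest gene Plk2, the death genes Phlda3, Trp53inp1, Eda2r and Perp, and Zmat3, an RNA-binding protein. The calls are from edgeR's quasi-likelihood test with a term for the set, with p-values adjusted by Benjamini-Hochberg over all 12209 genes and a threshold of 0.05. In the same fit 3.93% of all genes were called higher and 4.61% lower. With libraries scaled by their totals alone, 384 genes were higher and 910 lower, against 480 and 563, and the count of p53 genes stayed at 8 higher and 0 lower. The median log2 change of the 32 was 0.21, and that of all tested genes was 0.01. The fitted change was above 0 in 24 of the 32, as in 51.6% of all genes. Phlda3 alone was called with a log2 change of at least 1, as 0.573% of all genes were, and none with a change of -1 or below, as 1.6% were. At an unadjusted p under 0.05, 14 of the 32 were higher and 0 lower, against 13.7% and 14.1% of all genes. The same test without the set term called 0 of the 32, with 4 at an unadjusted p under 0.05 and 6.99% of all genes there. Leaving out H2O2 replicate 2 also left 0 calls. Each of the 8 then had an adjusted p of at least 0.0994, and 0.00799% of all genes were then called higher. Leaving out control replicate 3 left 4 calls, with 0.893% of all genes called higher.

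**Figure D1:**
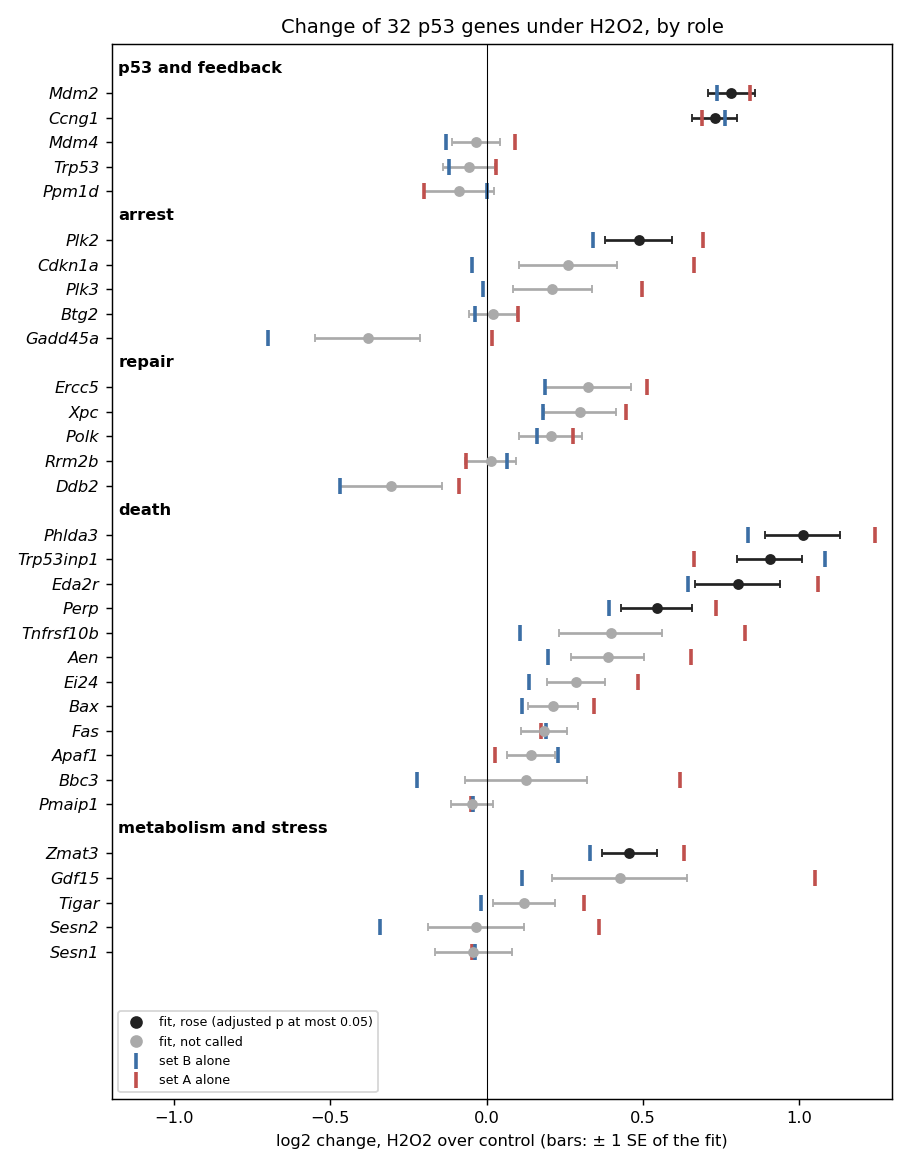
Log2 change of each of the 32 genes, H2O2 over control, grouped by role. Points with bars show the fit with the set term ± 1 SE, black where the gene rose, and the ticks show the change within set B (blue) and within set A (red). The 8 black points lie between 0.46 (Zmat3) and 1.01 (Phlda3).

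Among the regulators, Mdm2 and Ccng1 rose and the other 3 genes were not called. Mdm2 (chromosome 10, 117688875 to 117710758, GRCm38.p6) stood at 614 and 586 CPM in H2O2 libraries, against 342, 369.5 and 333 CPM in control replicates 1, 2 and 3. Both H2O2 libraries lay far above all controls, and the sets hardly differed. The mean was 599.8 ± 19.5 CPM under H2O2 (SD, n = 2) and 348.3 ± 18.8 CPM in controls (SD, n = 3), a 1.72-fold rise (log2 0.78 ± 0.076 SE, adjusted p = 0.00929 by edgeR). Ccng1, which encodes cyclin G1 and helps the phosphatase PP2A act on Mdm2, stood at 757 and 1267 CPM in H2O2 replicates 1 and 2, against 469.8, 781 and 713 CPM in controls. H2O2 replicate 1 lay below control replicate 2, but within each set H2O2 was higher. Its rise was 1.66-fold (log2 0.73 ± 0.072 SE, adjusted p = 0.00966 by edgeR), with 0.76 in set B and 0.69 in set A. Without H2O2 replicate 2 the adjusted p by edgeR was 0.0994 for Mdm2 and 0.117 for Ccng1.

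Trp53 itself stood at 57.2 and 55.4 CPM in H2O2 libraries, against 56.0, 57.3 and 63.5 CPM in controls. The groups overlapped, and the log2 change was -0.06 ± 0.083 SE (adjusted p = 0.7 by edgeR). Mdm4, the relative of Mdm2 that blocks p53 without degrading it, stood at 406 and 439 CPM in H2O2 libraries, against 381, 482 and 479 CPM in controls (log2 -0.03 ± 0.077 SE). Its libraries followed the set more than the treatment. Ppm1d, the phosphatase WIP1 that switches off p53 and its kinases, stood at 21.4 and 17.9 CPM in H2O2 libraries, against 24.6, 16.9 and 18.9 CPM in controls (log2 -0.09 ± 0.112 SE). Of these 3 inhibitors of p53, Mdm2 passed the test and Mdm4 and Ppm1d did not.

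The arrest targets gave 1 call among 5. Plk2, a polo-like kinase that p53 induces, stood at 204 and 322 CPM in H2O2 replicates 1 and 2, against 126, 274 and 236 CPM in controls. It was higher within each set but overlapped across sets. Plk2 rose 1.4-fold (log2 0.49 ± 0.107 SE, adjusted p = 0.041 by edgeR), with 0.34 in set B and 0.69 in set A. Its adjusted p lay above 0.05 without control replicate 3 (0.124), H2O2 replicate 1 (0.0696) or H2O2 replicate 2 (0.13).

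Cdkn1a (chromosome 17, 29090979 to 29100722), which encodes the cell cycle inhibitor p21 and is the best known arrest target, was not called. It stood at 861 and 1349 CPM in H2O2 replicates 1 and 2, against 543, 1466 and 1325 CPM in control replicates 1, 2 and 3. In set B the H2O2 library lay between its controls (log2 -0.05), and in set A it lay above its control (0.66). The fit over both sets gave 0.26 ± 0.156 SE (adjusted p = 0.327 by edgeR). Set B was 1.05 higher than set A in log2 level (adjusted p = 0.00326 by edgeR), so the difference between sets exceeded the change with treatment. Cdkn1a shares 273 exon bases with AC167363.2, a transcript on the opposite strand, and the counter's strand setting is not given.

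Gadd45a, a stress sensor that slows the cycle and aids repair, stood at 27.5 and 19.6 CPM in H2O2 replicates 1 and 2, against 27.1, 33.3 and 30.5 CPM in controls. The low library was H2O2 replicate 2, and in set A the levels were nearly equal. Gadd45a shares 337 exon bases with E230016M11Rik on the opposite strand. The fitted log2 change was -0.38 ± 0.168 SE (adjusted p = 0.195 by edgeR). Gadd45a was called lower without control replicate 1 (-0.71, adjusted p = 0.00587 by edgeR), where 816 of 12003 tested genes were. Without H2O2 replicate 1 it stood at -0.70. In both fits set B alone holds both treatments. Plk3, a related kinase of the stress response, stood at 61.4 and 49.9 CPM in H2O2 libraries, against 43.5, 52.99 and 47.8 CPM in controls. H2O2 replicate 1 was its highest library, and the log2 change was 0.21 ± 0.126 SE. Btg2, an antiproliferative cofactor, stood at 80.3 and 100.1 CPM in H2O2 libraries, against 74.9, 98.3 and 107 CPM in controls (log2 0.02 ± 0.078 SE).

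**Figure D2:**
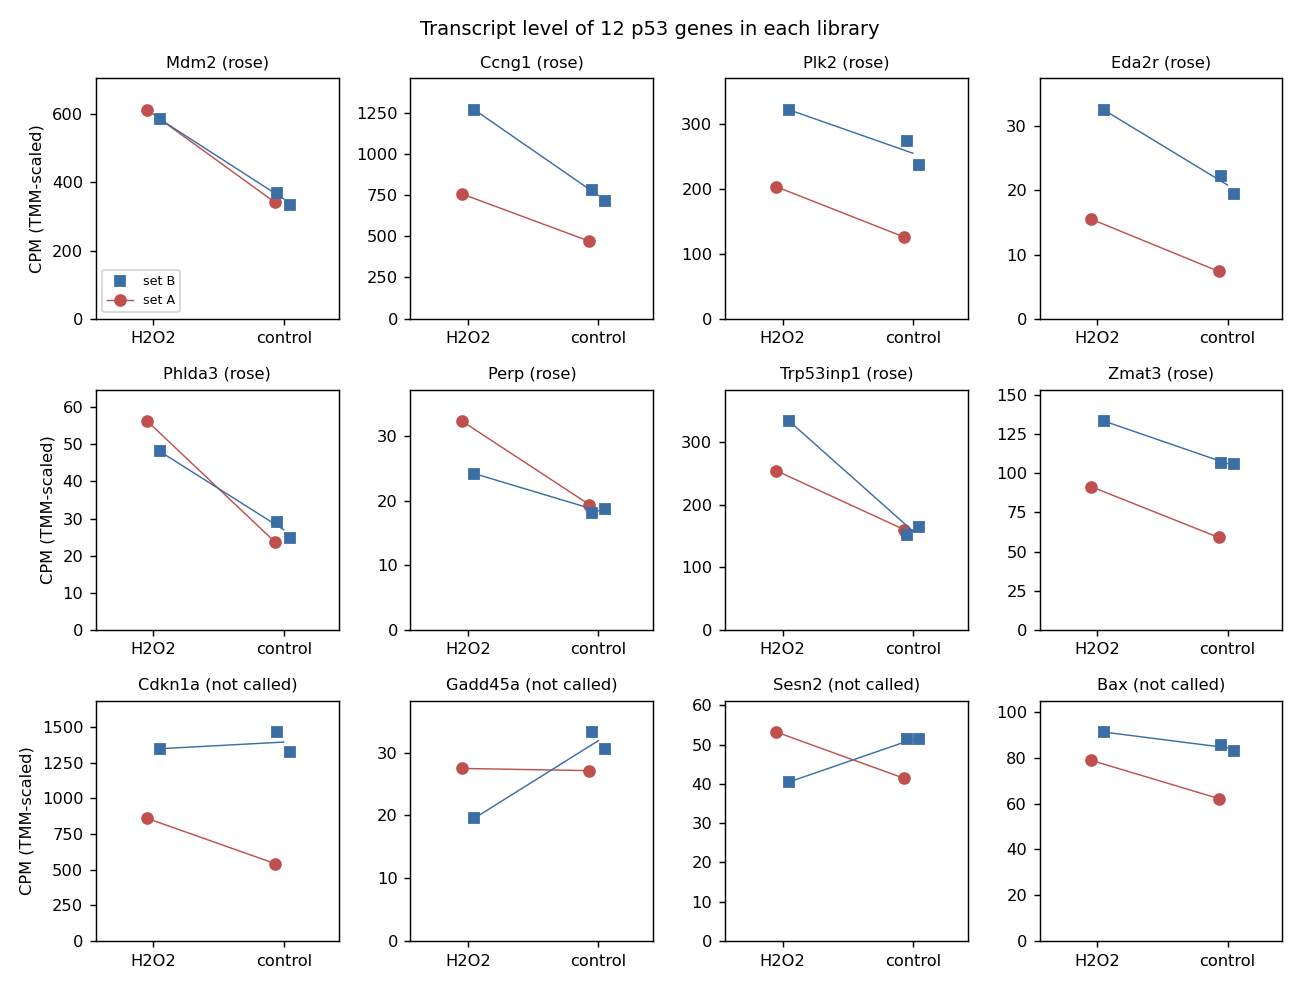
Transcript level in CPM of the 8 genes that rose and of Cdkn1a, Gadd45a, Sesn2 and Bax, for H2O2 (left) and control (right) libraries. Blue squares are set B and red circles set A, and lines join each H2O2 library to its own set's control mean. Mdm2, Phlda3, Perp and Trp53inp1 show both H2O2 libraries above all 3 controls, and in Cdkn1a control replicates 2 and 3 (1466 and 1325 CPM) lie above H2O2 replicate 1 (861 CPM).

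The cell cycle genes known to fall when p21 acts through the DREAM repressor complex were counted beside the arrest targets. Of 18 such genes 16 fell and 0 rose, with a median log2 change of -1.40, in a fit where 4.61% of all genes were lower. Without the set term 0 of the 18 and 0 of all genes were called lower. Without the low-count filter these counts were 1 of the 18 and 42 of all genes. Without control replicate 3, 14 of the 18 were called lower, as were 196 of 12091 tested genes. Most of the calls were lost when either H2O2 library was left out, which leaves a lone library in that group. Without H2O2 replicate 2 hardly any of all tested genes was called. Mki67, the marker of dividing cells, stood at 135 and 67.4 CPM in H2O2 replicates 1 and 2, against 414, 112 and 202 CPM in controls. In each set H2O2 was the lower, and the log2 change was -1.39 ± 0.243 SE (adjusted p = 0.0255 by edgeR). Aurkb, Plk1 and Bub1, which act in mitosis, fell by 1.26, 1.87 and 1.41 on the log2 scale. In set B the 18 genes summed to 279 CPM in the H2O2 library and to 464 and 789.8 CPM in controls. The change of Cdkn1a in set B was log2 -0.05. In set A the 18 genes summed to 517 CPM in the H2O2 library and to 1384 CPM in the control. The change of Cdkn1a in set A was log2 0.66. The part of Cdkn1a in this fall was not tested.

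None of the 5 repair targets was called. Xpc, which recognises DNA lesions for nucleotide excision repair, stood at 21.5 and 18.5 CPM in H2O2 libraries, against 15.8, 15.8 and 16.8 CPM in controls. Both H2O2 libraries lay above all controls, but the adjusted p was 0.151 by edgeR (log2 0.30 ± 0.116 SE). Ddb2, the other lesion sensor of that pathway, lay the other way, at 5.68 and 5.12 CPM in H2O2 libraries, against 6.04, 7.07 and 7.19 CPM in controls (log2 -0.31 ± 0.163 SE, adjusted p = 0.271 by edgeR). Ddb2 shares 652 exon bases with Acp2 on the opposite strand, which was at 80.8 to 98.0 CPM, so its low counts are uncertain.

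Ercc5, the nuclease that cuts beside a lesion, stood at 39.7 and 33.1 CPM in H2O2 libraries, against 27.7, 33.1 and 25.5 CPM in controls (log2 0.32 ± 0.139 SE, adjusted p = 0.185 by edgeR). Polk, a polymerase that copies past damaged bases, stood at 54.1 and 67.8 CPM in H2O2 libraries, against 44.6, 66.8 and 55.1 CPM in controls (log2 0.21 ± 0.101 SE). In set A each was higher under H2O2, while in set B its H2O2 level came close to the higher control. Rrm2b, the p53-induced subunit of ribonucleotide reductase, stood at 24.6 and 39.6 CPM in H2O2 libraries, against 25.7, 38.1 and 37.6 CPM in controls (log2 0.01 ± 0.083 SE), and separated the sets but not the treatments. It shares 734 exon bases with an antisense transcript.

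The death targets held 4 of the 8 calls, among 12 genes. Phlda3, which blocks the survival kinase Akt from reaching the membrane, showed the largest change of the 32 genes. It stood at 56.3 and 48.1 CPM in H2O2 libraries, against 23.7, 29.1 and 24.9 CPM in controls. The groups were far apart in both sets, with a mean of 52.2 ± 5.81 CPM under H2O2 (SD, n = 2) and 25.9 ± 2.81 CPM in controls (SD, n = 3). Phlda3 rose 2.02-fold (log2 1.01 ± 0.121 SE, adjusted p = 0.0149 by edgeR). Trp53inp1, a nuclear cofactor that promotes p53's death programme, stood at 255 and 334 CPM in H2O2 libraries, against 160.5, 151 and 164 CPM in controls. The controls were tightly grouped and both H2O2 libraries lay above them. It rose 1.87-fold (log2 0.91 ± 0.103 SE, adjusted p = 0.014 by edgeR), with 1.08 in set B and 0.67 in set A. Without H2O2 replicate 2 both Phlda3 and Trp53inp1 had an adjusted p of 0.0994.

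Eda2r, an X-linked receptor of the tumour necrosis factor family, stood at 15.5 and 32.6 CPM in H2O2 replicates 1 and 2, against 7.38, 22.2 and 19.4 CPM in controls. H2O2 replicate 1 lay below control replicates 2 and 3, and set B was higher than set A by 1.29 in log2 level. Within sets it was higher in both, and it rose 1.75-fold (log2 0.80 ± 0.136 SE, adjusted p = 0.0244 by edgeR). Without control replicate 3 the adjusted p was 0.0634, and without H2O2 replicate 2 it was 0.126. Perp, a membrane protein of p53-dependent death, stood at 32.4 and 24.2 CPM in H2O2 libraries, against 19.4, 18.1 and 18.8 CPM in controls. The groups did not overlap. It rose 1.46-fold (log2 0.55 ± 0.114 SE, adjusted p = 0.0359 by edgeR), but the adjusted p lay between 0.0594 and 0.118 when single libraries were left out.

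The BH3-only genes, whose products start death at mitochondria, were not called. Bbc3, which encodes PUMA, stood at 13.5 and 14.7 CPM in H2O2 replicates 1 and 2, against 8.78, 17.7 and 16.6 CPM in controls (log2 0.13 ± 0.197 SE). H2O2 was lower than both controls in set B and higher than the control in set A. Pmaip1, which encodes NOXA, stood at 200.5 and 186 CPM in H2O2 libraries, against 208, 185 and 198 CPM in controls (log2 -0.05 ± 0.068 SE), a narrow range in which the groups overlapped. Bax, the pore-forming protein they release, stood at 79.0 and 91.4 CPM in H2O2 libraries, against 62.3, 85.8 and 83.2 CPM in controls (log2 0.21 ± 0.080 SE, adjusted p = 0.145 by edgeR). Bax shares 192 exon bases with a predicted gene on its own strand. Apaf1, the scaffold that activates caspase-9, stood at 147 and 157 CPM in H2O2 libraries, against 144, 129.9 and 138 CPM in controls (log2 0.14 ± 0.077 SE), with both H2O2 libraries above all controls by a small margin.

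The death receptors Fas and Tnfrsf10b were not called either. Fas stood at 47.1 and 40.3 CPM in H2O2 libraries, against 41.8, 35.5 and 35.1 CPM in controls (log2 0.18 ± 0.073 SE, adjusted p = 0.162 by edgeR). It was higher by nearly the same amount in set B (0.19) and set A (0.17). Tnfrsf10b, the mouse receptor for TRAIL, stood at 21.8 and 30.2 CPM in H2O2 libraries, against 12.2, 28.6 and 27.6 CPM in controls (log2 0.40 ± 0.165 SE, adjusted p = 0.175 by edgeR). Its change was 0.11 in set B and 0.83 in set A. Aen, a nuclease that p53 induces, stood at 45.4 and 57.6 CPM in H2O2 libraries, against 28.8, 52.3 and 48.3 CPM in controls (log2 0.39 ± 0.116 SE, adjusted p = 0.086 by edgeR). Ei24, an endoplasmic reticulum protein, stood at 109.6 and 97.9 CPM in H2O2 libraries, against 78.3, 88.1 and 90.2 CPM in controls (log2 0.29 ± 0.094 SE, adjusted p = 0.106 by edgeR). Both of Ei24's H2O2 libraries lay above all controls.

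Among the targets in metabolism and stress, Zmat3 rose and 4 genes were not called. Zmat3, an RNA-binding zinc finger protein, stood at 91.5 and 133 CPM in H2O2 replicates 1 and 2, against 59.0, 107 and 106 CPM in controls. It was higher within each set, and the sets stood apart. It rose 1.37-fold (log2 0.46 ± 0.087 SE, adjusted p = 0.0294 by edgeR). The adjusted p was 0.0505 without control replicate 2, 0.0852 without control replicate 3 and 0.0994 without H2O2 replicate 2. Gdf15, a secreted stress hormone, stood at 5.56 and 13.3 CPM in H2O2 libraries, against 2.62, 12.1 and 12.4 CPM in controls (log2 0.43 ± 0.216 SE, adjusted p = 0.253 by edgeR). Set B was above set A in every library, by 1.73 in log2 level.

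The sestrins, which curb the growth kinase mTORC1 and help peroxiredoxins, and Tigar, which lowers glycolysis, did not pass the test. Sesn2 stood at 53.2 and 40.5 CPM in H2O2 replicates 1 and 2, against 41.4, 51.4 and 51.3 CPM in controls. Its changes were opposite, -0.34 in set B and 0.36 in set A, and the fitted change was -0.03 ± 0.153 SE. Sesn2 was called lower without control replicate 1 (-0.35, adjusted p = 0.0222 by edgeR), where 816 of 12003 tested genes were. Without H2O2 replicate 1 it stood at -0.34. Sesn1 stood at 14.1 and 11.1 CPM in H2O2 libraries, against 14.6, 10.6 and 12.1 CPM in controls (log2 -0.04 ± 0.123 SE), with the groups overlapping. Tigar stood at 31.6 and 42.6 CPM in H2O2 libraries, against 25.4, 42.5 and 43.7 CPM in controls (log2 0.12 ± 0.099 SE). It followed the sets.

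The library sets were then compared over the 32 genes. Each H2O2 library lay above every control of its own set in 17 genes and below in 1 (Ddb2), against 28.5% and 28% of all genes. Both H2O2 libraries lay above all 3 controls in 7 genes, which 13% of all genes did. These 7 were Mdm2, Xpc, Apaf1, Phlda3, Ei24, Perp and Trp53inp1. The change was above 0 in 20 genes in set B and in 27 in set A. The median log2 change was 0.11 in set B and 0.47 in set A, with medians over all genes of -0.0004 and 0.006. The change was larger in set A than in set B in 24 of the 32 genes, as in 51% of all genes.

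The difference between the changes was tested with a term for set by treatment, which leaves 1 residual degree of freedom. Set A has 1 library a group and set B 1 H2O2 library, so its spread comes from the 2 set B controls alone, and a difference it does not call is not shown to be absent. It called 0 of the 32 genes, with adjusted p of at least 0.0832 by edgeR, and 0.0164% of all genes. At an unadjusted p under 0.05 the signed change in set B minus that in set A was below 0 in 10 genes (4.42% of all genes). It was above 0 in 1, Trp53inp1 (9.29% of all genes). The 10 were Cdkn1a, Gadd45a, Plk3, Bbc3, Tnfrsf10b, Aen, Ei24, Sesn2, Gdf15 and Zmat3. By role, the median change in set B was 0.002 for regulators, -0.04 for arrest, 0.16 for repair, 0.19 for death and -0.02 for metabolism and stress. In set A the same medians were 0.09, 0.50, 0.28, 0.64 and 0.36. Irrespective of treatment, 14 of the 32 genes were higher in set B than in set A and 2 were lower, with 16.9% and 19.1% of all genes called in those directions. Set A has a single control library, which enters both its level and its change, so these counts are not independent of each other.

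**Figure D3:**
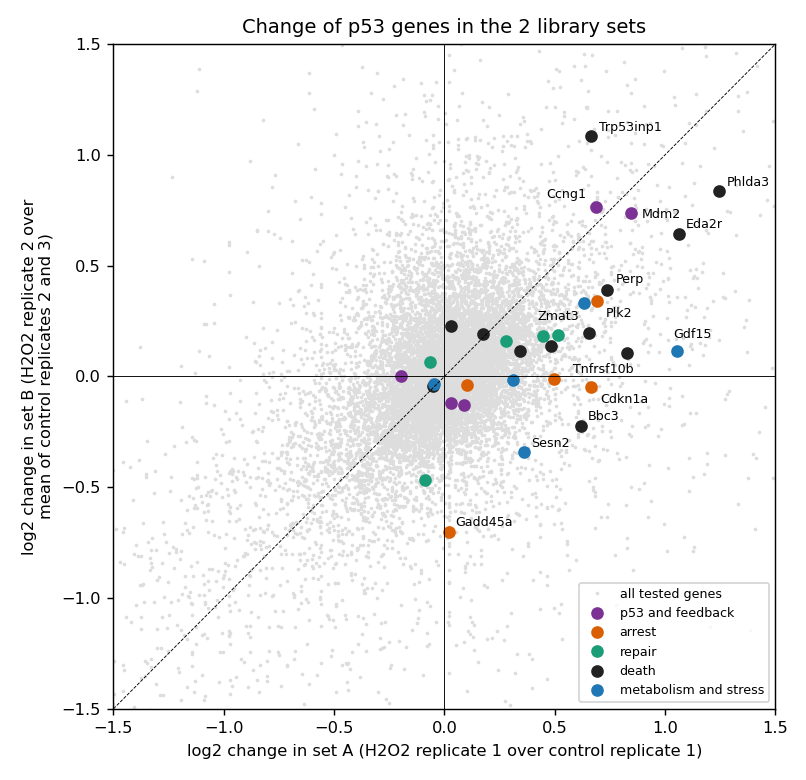
Log2 change within set B (vertical) against that within set A (horizontal) for the 32 genes, coloured by role, over all tested genes in grey, where grey points beyond 1.5 on either axis are not drawn. The dashed line marks equal changes. Of the coloured points 24 lie below it, and Ccng1 and Trp53inp1 are among those above it.

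Other genes of the pathway were counted in the same fit. Of 17 further p53 targets 2 rose and 0 fell, against 3.93% and 4.61% of all genes, with a median log2 change of 0.09. Ak1, an adenylate kinase, stood at 13.5 and 14.5 CPM in H2O2 libraries, against 4.82, 9.91 and 6.95 CPM in controls (log2 1.06 ± 0.217 SE, adjusted p = 0.0341 by edgeR). Pidd1, which activates caspase-2, stood at 15.5 and 16.5 CPM in H2O2 libraries, against 10.2, 12.4 and 12.4 CPM in controls (log2 0.50 ± 0.116 SE, adjusted p = 0.048 by edgeR). In both genes the groups did not overlap. Of the 17, 0 were called higher without control replicate 3, H2O2 replicate 1 or H2O2 replicate 2, and Ak1 alone was without control replicate 1 or control replicate 2. Epha2 stood at log2 -0.51 in the full fit (adjusted p = 0.184 by edgeR), with -0.77 in set B and -0.0067 in set A. It was called lower without control replicate 1 (-0.80, adjusted p = 0.0411 by edgeR), where 816 of 12003 tested genes were. Rps27l, the target with the highest mean CPM, stood at log2 0.06 ± 0.073 SE.

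Over all 5 libraries the upstream genes gave no call. Of 18 kinases and partners that activate p53, 16 were tested and 0 were called by edgeR, with a median of -0.02. At an unadjusted p under 0.05 there were 3 of the 16, against 27.8% of all genes in either direction. Rpl11, which like Rpl5 binds Mdm2, stood at log2 -0.29 over all 5 libraries (adjusted p = 0.0913 by edgeR). It was called lower without control replicate 1 (-0.42, adjusted p = 0.0106 by edgeR), where 816 of 12003 tested genes were. Without H2O2 replicate 1 it stood at -0.41. In both fits set B alone holds both treatments, and in set A Rpl11 stood at -0.12. Chek1, a checkpoint kinase, stood at -0.92 over all 5 libraries (adjusted p = 0.0812 by edgeR). It was called lower without control replicate 2 (-1.08, adjusted p = 0.0263 by edgeR), where 468 of 12103 tested genes were. Rpl5, which binds Mdm2 when ribosome assembly fails, had the highest CPM and stood at log2 -0.18 ± 0.081 SE. The relatives Trp63 and Trp73 were not tested, with at most 0.061 CPM in any library. Of 9 other ligases and deacetylases of p53, 0 were called by edgeR and 1 had an unadjusted p under 0.05, with a median of -0.07. Sirt1, a deacetylase of p53, stood at log2 0.40 over all 5 libraries (adjusted p = 0.234 by edgeR). Within sets it stood at 0.81 in set B and -0.14 in set A. It was called higher without control replicate 1 (0.80, adjusted p = 0.00216 by edgeR), where 1248 of 12003 tested genes were. Without H2O2 replicate 1 it stood at 0.81. In both fits set B alone holds both treatments. These genes were named after their values were seen. Huwe1, the most abundant in CPM, stood at log2 -0.09 ± 0.068 SE.

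**Figure D4:**
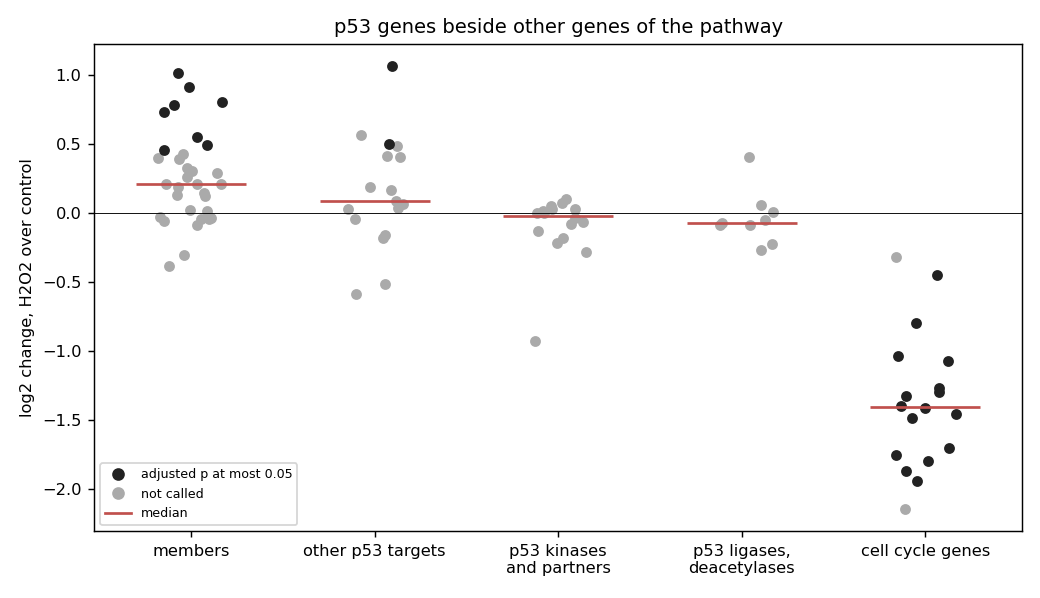
Log2 change, H2O2 over control, of the 32 genes and of 4 further lists, 1 point per tested gene, black where the adjusted p was at most 0.05, with the median as a line. The medians are 0.21 for the 32 genes, 0.09 for other targets, -0.02 for kinases and partners, -0.07 for ligases and deacetylases and -1.40 for cell cycle genes.

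Markers of other cell types moved in the same fit. Of 8 mast cell, basophil and eosinophil markers 7 fell, where 4.61% of all genes were lower. Among them were Prss34 (log2 -3.76), Prg2 (-3.96) and Mcpt8 (-3.39). Under H2O2 Prg2 stood at 0.18 and 0.13 CPM and Mcpt8 at 0.41 and 0.58 CPM, so both were near the floor. The change of Prg2 was -4.16 in set B and -1.82 in set A. Without the set term 0 of the 8 were called lower, without the low-count filter 2, and without control replicate 3, 4. The list summed to 4.73 and 15.1 CPM in H2O2 libraries and to between 18.8 and 78.8 CPM in controls. Epx was at 0 in H2O2 replicate 1. Of 9 neutrophil and progenitor markers, 8 were tested and 2 fell, Mpo and Ctsg, with sums of 87.1 and 409 CPM in H2O2 libraries and 80.0 to 395 CPM in controls. S100a9, the most abundant of them, stood at log2 0.09 ± 0.229 SE. Of 10 macrophage and monocyte markers, 9 were tested, Cd68 rose and C1qb and C1qc fell. In set B C1qb stood at 0.71 CPM under H2O2, against 0.97 and 1.22 CPM in controls. C1qc stood there at 0.52 CPM, against 0.66 and 0.85 CPM, so both were near the floor in set B. DESeq2 and the replicate block called 0 of these markers lower. So did the fits without the set term, the low-count filter, control replicate 1 or control replicate 3. Limma-voom, both other scalings and the fit without control replicate 2 called 2. Cd68 was not called under the replicate block or without the set term, the low-count filter or control replicate 3. The 10 markers summed to 1177 and 1388 CPM in H2O2 libraries and to 935 to 1142 CPM in controls. Csf1r, the most abundant, stood at log2 0.27 ± 0.072 SE (adjusted p = 0.0642 by edgeR). The 9 lymphoid and erythroid markers summed to at most 2.56 CPM in any library and none was tested. The part of other cell types in the changes of the p53 genes was not tested.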

How the data were processed

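Gene symbols and GRCm38.p6 positions came from RefSeq, by NCBI Gene ID, for 17520 of 17567 table entries, and the remaining 47 held 0.133% of counts. The deposited files hold estimated counts, since 8.38% to 9.03% of each library's values had decimals. HISAT, Bowtie2 and GRCm38.p6 appear in the submitters' processing notes with no roles. Counter, annotation and strand setting are not given in those notes, and 8 of the 32 genes share exon bases with another gene in GENCODE M21.

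Counts were rounded, filtered (filterByExpr in edgeR, with a count minimum of 10 and a total of 15) and TMM-scaled. The quasi-likelihood F test had treatment and set terms (2 residual degrees of freedom), with Benjamini-Hochberg adjustment at 0.05. SE is the absolute log2 change over the square root of F. CPM uses TMM-adjusted library sizes, and changes within a set are differences of log2 CPM with a prior count of 2. Set A holds 1 library a group, so its changes have no replicate check. Software was edgeR 4.0.16, DESeq2 1.42.0 and limma 3.58.1 under R 4.3.3.

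The 32 genes, lists, set term and named genes (all 32; from each further list its most abundant gene and up to 3 called genes each way, by p; the markers Itgax, Flt3 and Mki67 and the Y-linked genes) were chosen with earlier results of these data known. Cd209a, Epx, Trp63 and Trp73 are named outside that rule for their low counts. Epha2, Rpl11, Chek1 and Sirt1 are named outside it because they were called when a library was left out. Alternatives were no set term, a replicate block, DESeq2, limma-voom, other scalings, no filter and leaving out each library.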

Additional observations from a re-analysis of the deposited data

Results flagged for a closer look

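In 6 genes H2O2 moved one way in set A and, beyond both controls, the other way in set B. None of these differences passed the test of the set by treatment term after adjustment. The change in set B minus that in set A was -0.15 for Trp53, -0.22 for Mdm4, -0.72 for Gadd45a, 0.13 for Rrm2b, -0.85 for Bbc3 and -0.70 for Sesn2, all on the log2 scale. The smallest adjusted p by edgeR was that of Sesn2 (0.0832).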

How the results depend on the processing

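Without the set term 0 of the 32 genes and 0 of all genes were called in either direction, as were 0 higher and 0 lower in the pathway lists. Without the low-count filter 4 of the 32 were called higher, with 60 of all genes higher and 42 lower and 0 higher and 1 lower in the pathway lists. A replicate block called 7 of the 32 (Plk2 was lost), 220 of all genes higher and 334 lower. Library totals called 910 genes lower. Pathway lists had 1 gene called higher under the replicate block, DESeq2, RLE and library totals, against 2. Each H2O2 library lay below its own set's controls in 2 of the 32 under RLE and 6 under library totals, against 1. The cause of these differences was not tested. Replicate numbers followed accession order, so the block is no pairing. Deviations from the group mean correlated at 0.81 and 0.71 for libraries with equal numbers, and at 0.66 for control replicate 3 with H2O2 replicate 2. The 2 H2O2 deviations mirror each other and the 3 control deviations sum to 0. These correlations are therefore tied together and are not separate support for the sets.

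Leaving out 1 library, which can leave H2O2 with a lone library assumed to vary like the controls, called 0 to 7 of the 32 higher and 0 to 2 lower, 1 to 1248 of all genes higher and 0 to 816 lower, and 0 to 2 higher and 0 to 18 lower in the pathway lists. The median of the 32 ranged from 0.11 to 0.47. All 8 called genes kept their sign in each of the 12 alternatives. Changes of genes not called that turned sign without a library ranged, on the log2 scale, from -0.13 to 0.028 for Trp53, -0.14 to 0.088 for Mdm4, -0.20 to 0.0020 for Ppm1d, -0.057 to 0.66 for Cdkn1a, -0.048 to 0.10 for Btg2, -0.71 to 0.016 for Gadd45a, -0.021 to 0.50 for Plk3, -0.068 to 0.069 for Rrm2b, -0.23 to 0.62 for Bbc3, -0.35 to 0.36 for Sesn2 and -0.026 to 0.31 for Tigar. Sign also turned without the set term for Cdkn1a (-0.0089), Btg2 (-0.052), Rrm2b (-0.075), Bbc3 (-0.025), Sesn1 (0.018) and Tigar (-0.0053), under the replicate block for Rrm2b (-0.0017), Sesn1 (0.0037) and Sesn2 (0.010), and under library totals for Btg2 (-0.045) and Rrm2b (-0.054). The lowest count among the 32 was 45, of Gdf15 in control replicate 1, so counting error weighs most there.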
